A study of Mus musculus with 10 samples.

Results

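Genes of the Toll-like receptor family (Tlr1, Tlr2, Tlr3, Tlr4, Tlr6, Tlr7 and Tlr9), the co-receptor genes Cd14 and Ly96 and the adaptor gene Myd88 were examined in CD34- hematopoietic stem cells (HSCs) of mouse bone marrow. These 10 genes were picked by symbol from 33393 genes in the deposited transcript tables, and their 29 transcripts were added up to a gene level. The cells were sorted as Lin- ScaI+ cKit+ CD34- Flt3- from C57BL/6 mice at 8 weeks of age. The controls were Reg1flox/flox, and the other group, written Reg1Δ/Δ, was Vav1-iCre; Reg1flox/flox, so that both groups carried the floxed alleles of the gene for Regnase-1 (Zc3h12a) and the Cre was present in 1 group alone. An effect of the Cre itself and one of the deletion cannot be told apart. Vav1-iCre is active throughout the blood lineages, so a difference that arose inside the sorted cells and one that came from other blood cells cannot be told apart. The first experiment had 3 libraries per group and the second had 2, and the comparison asked how the genotypes differed within each experiment.

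Toll-like receptors recognise molecules of microbes. Tlr1, Tlr2, Tlr4 and Tlr6 sit at the cell surface and bind lipids and lipopeptides, whereas Tlr3, Tlr7 and Tlr9 sit in endosomes and bind nucleic acids. Ly96 (MD-2) is the partner of Tlr4 that holds lipopolysaccharide, and Cd14 hands lipopolysaccharide to that pair. Myd88 couples all of these receptors except Tlr3 to the Irak kinases and NF-kB, and it also serves the receptors for IL-1, IL-18 and IL-33. Hematopoietic stem and progenitor cells are known to carry some of these receptors and to respond to their ligands. Regnase-1 is an RNase that is known in macrophages as a brake on mRNAs induced by Toll-like receptors.

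Of the 10 genes, 6 had an entry among the RefSeq promoters of GRCm38.p6 (Tlr1, Tlr2, Tlr3, Tlr6, Tlr9 and Myd88). The 250 bases before each start were searched on both strands for an interferon-response element (GAAANNGAAA), an NF-kB site (GGGNNNNNCC) and a Pu.1 site (GAGGAAG). Windows of 30 bases around matches are shown 5′ to 3′ on the strand of the gene, with the match in capitals, for Myd88, which was higher in the Reg1Δ/Δ libraries, and for 3 receptors that were lower or near zero there.
Myd88, interferon-response element, chr9:119340039-119340068, minus strand: gagcttctcgGAAAGCGAAAgaaggagggg
Tlr2, NF-kB site, chr3:83841761-83841790, minus strand: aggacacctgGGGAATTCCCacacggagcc
Tlr1, Pu.1 site, chr5:64933563-64933592, minus strand: attaaatgttgGAGGAAGtaggagcttgaa
Tlr9, Pu.1 site, chr9:106222475-106222504, plus strand: gagagtggaaaGAGGAAGgggttgaggggg
The Myd88 match began 40 bases before the RefSeq start, which lies inside the annotated gene, and the Tlr2 match 172 bases before it. The interferon-response letters occurred in 2.98% of 32851 promoters of this length, the NF-kB letters in 45.8% and the Pu.1 letters in 10.6%. Tlr6 also held the interferon-response letters, in antisense, and Tlr3 and Tlr6 also held the NF-kB letters. A match describes the letters of a window, and no binding was measured.

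Values were TPM, the number of a transcript among 1000000 transcripts, a relative abundance that is corrected for length. Since this unit holds no number of reads, sequencing depth is unknown and no counting error is given. A gene was tested when 5 or more of the 10 libraries had 1 TPM or more, and differences are Reg1Δ/Δ minus control on the log2(TPM + 1) scale, which understates the change of low genes. The adjusted p values are from limma with the experiment as a covariate, Benjamini-Hochberg over 12874 genes. Nothing states whether the libraries of a group came from separate mice, so p values measure the spread between these libraries. The deleted gene went against its label. Zc3h12a had a TPM of 1.83, 1.28 and 1.60 in the first-experiment controls and 1.48 and 6.07 in those of the second, compared with 3.54, 2.08 and 2.51 and with 10.3 and 8.52 in the Reg1Δ/Δ libraries. Within each experiment every Reg1Δ/Δ library was thus above the controls (difference 0.83 ± 0.28, SE, n = 5 per group, limma adjusted p = 0.0314), and this call was lost without the second control or first Reg1Δ/Δ library of the first experiment, or without either Reg1Δ/Δ library of the second (limma adjusted p = 0.0595 to 0.0768). It was also lost without the filter (0.0897), without the experiment covariate (0.214), with a replicate block (0.0505) and with each experiment fitted alone (0.0527 and 0.265). A 4-group model fits both experiments together, with 1 estimate of the spread per gene. There Zc3h12a did not pass in the first experiment (0.52, limma adjusted p = 0.240) and passed in the second (1.3, limma adjusted p = 0.0465). The difference was 0.53 without the first control of the second experiment. The TPM of all transcripts was summed, whether or not they hold the deleted part of the gene. The deletion was measured separately in the study by qRT-PCR of sorted cells, which is not analysed here. Every direction below is one between libraries labelled Reg1Δ/Δ and libraries labelled control.

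The libraries also differed in features beyond these 10 genes. Genes at a TPM of at least 1 numbered 14276 to 14307 (first experiment) and 13366 to 13717 (second) in the controls, and 12006 to 12048 and 11256 to 11398 in the Reg1Δ/Δ libraries. Of 9 genes of HSCs and their gate, 7 fell past the test, beside 37.9% of all tested genes, among them Hlf, Mecom and Procr, which are characteristic of HSCs. Cd34 RNA was at 142 ± 76.9 TPM in the controls and 14.7 ± 4.18 in the Reg1Δ/Δ libraries (SD, n = 5), although the sort took cells without CD34 on their surface. RNA of neutrophil, monocyte and B lineage genes was present in the controls and is given beside the receptors below.

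In the controls, the adaptor was by far more abundant than any receptor. Myd88 had a mean of 28.9 ± 2.53 TPM (SD, n = 5), followed by Ly96 at 19.9 ± 8.14, whose range overlapped that of Myd88. The receptors came next and far lower, with Tlr6 at 4.97 ± 3.48, Tlr2 at 4.95 ± 0.386, Tlr4 at 3.97 ± 1.46 and Tlr7 at 2.11 ± 1.25 TPM. Cd14 had a mean of 3.95 ± 6.99 TPM that came from a single library. Tlr3 (1.43 ± 1.38), Tlr1 (0.704 ± 0.329) and Tlr9 (0.312 ± 0.478) were lowest. From Tlr6 downwards the ranges of neighbours in this order overlapped. The ranges of Ly96 and Tlr6 did not. In the Reg1Δ/Δ libraries, Myd88 stood at 39.1 ± 5.14 TPM, apart from Ly96 at 4.74 ± 2.64, and Tlr6 at 2.44 ± 2.25 was the only receptor with a mean above 1 TPM.

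**Figure D1:**
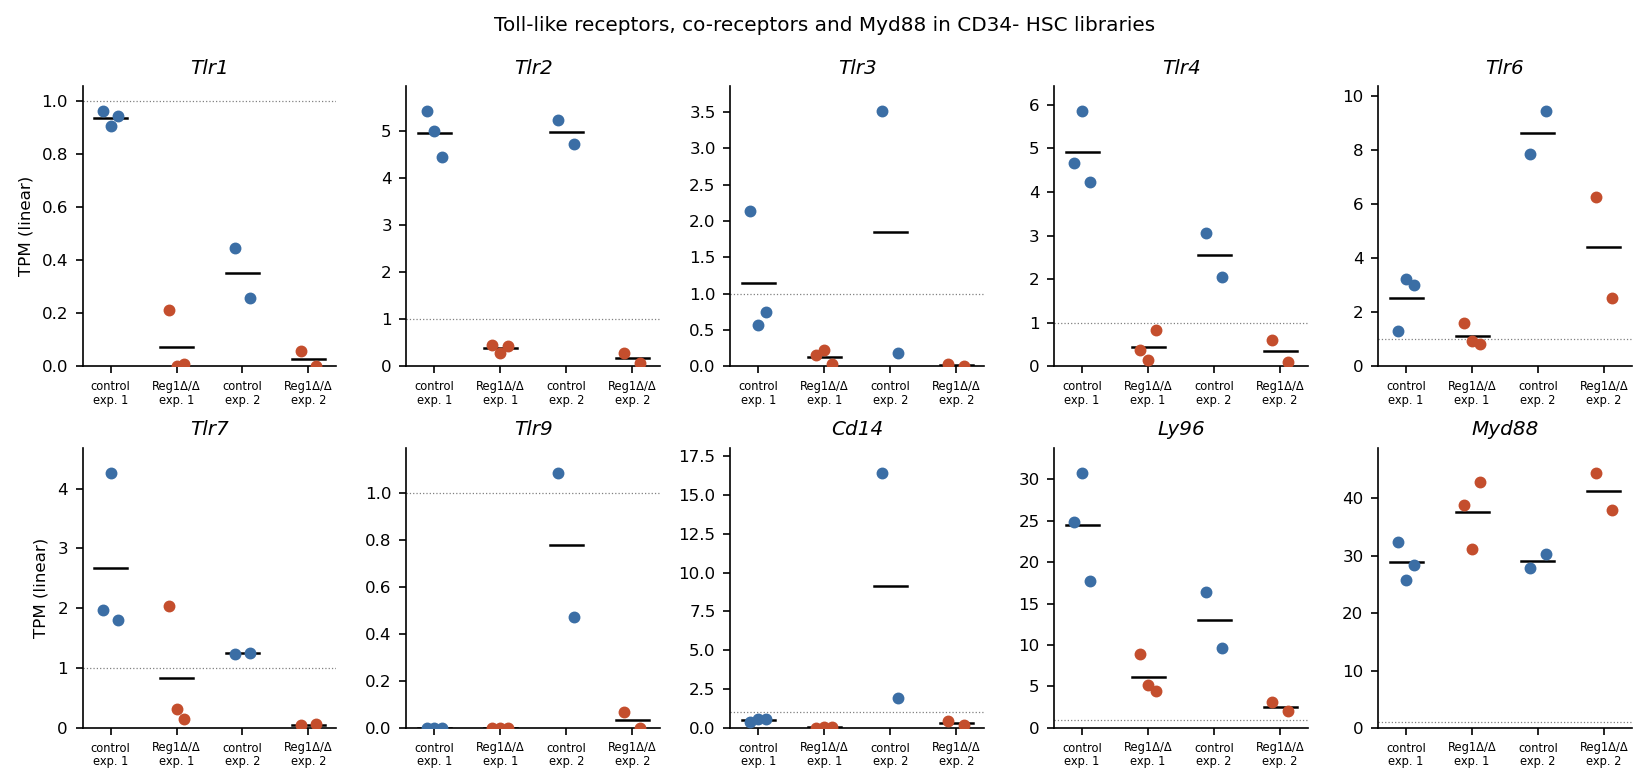
TPM (linear axis, its own scale for each gene) of the 10 genes in the 10 libraries, by genotype and experiment. Each point is a library, black bars are group means and the dotted line marks a TPM of 1. Tlr2 lay between 4.45 and 5.41 in the controls and between 0.0806 and 0.453 in the Reg1Δ/Δ libraries, whereas the mean of Myd88 was higher in the latter.

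Tlr2 was lower in all Reg1Δ/Δ libraries. Tlr2 (ENSMUSG00000027995, chromosome 3, 83836272 to 83841767 of GRCm38, minus strand) pairs with Tlr1 or Tlr6 to bind bacterial lipopeptides. Its TPM was 5.41, 4.99 and 4.45 in the first-experiment controls and 5.22 and 4.71 in those of the second. In the Reg1Δ/Δ libraries it was 0.453, 0.283 and 0.429, then 0.284 and 0.0806. The controls varied little, all Reg1Δ/Δ libraries were under 0.5 TPM, and the groups did not overlap in either experiment. The mean TPM of the controls was 16.2 times that of the Reg1Δ/Δ libraries, and the fitted value fell by 2.19 ± 0.08 (SE) on the log2 scale (95% interval −2.38 to −2.01, limma adjusted p = 3.43e-06). This fit is the one without the filter on low values, since Tlr2 passed that filter through the controls alone and so had to differ. The gene has 1 transcript in these files, of 3014 bases, so this value does not depend on how reads were divided between isoforms.

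Tlr4 and its partner Ly96 were both lower. Tlr4 (ENSMUSG00000039005, chromosome 4, 66827584 to 66930284, plus strand), the receptor for lipopolysaccharide, was at 4.67, 5.85 and 4.23 TPM in the first-experiment controls and at 3.07 and 2.05 in those of the second. The Reg1Δ/Δ libraries had 0.384, 0.141 and 0.838, then 0.597 and 0.0977. No Reg1Δ/Δ library reached 1 TPM and no control was under 2. Tlr4 also passed the filter through the controls alone, and without the filter it fell by 1.79 ± 0.20 on the log2 scale (limma adjusted p = 0.000461).

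Ly96 (ENSMUSG00000025779, chromosome 1, 16688051 to 16709611, plus strand) was at 24.9, 30.8 and 17.7 TPM in the first-experiment controls and at 16.4 and 9.62 in those of the second. In the Reg1Δ/Δ libraries it was at 8.91, 5.22 and 4.45, then 3.16 and 1.98. Both groups were lower in the second experiment, and within each experiment they did not overlap. Ly96 fell by 1.88 ± 0.23 on the log2 scale (limma adjusted p = 0.0001), and the mean TPM of the controls was 4.19 times that of the Reg1Δ/Δ libraries. Ly96 was above Tlr4, its receptor, in every library.

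**Figure D2:**
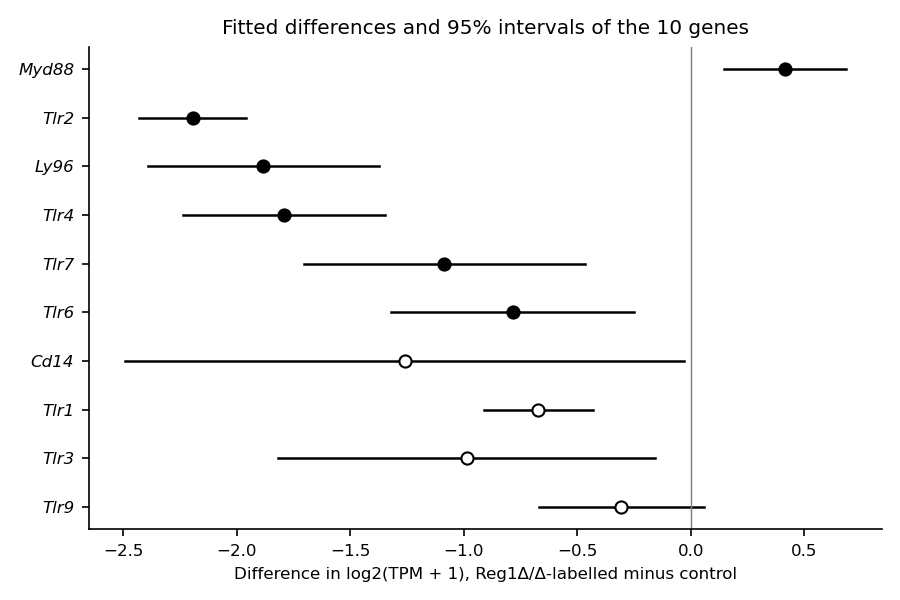
Fitted difference in log2(TPM + 1), Reg1Δ/Δ minus control, with its 95% interval (lines) for the 10 genes, 5 libraries per group. Filled points are genes past the filter on low values and open points are the 4 genes under it, fitted without a filter. Myd88 was the only gene with a difference above 0, at 0.42.

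Myd88 moved the other way. Myd88 (ENSMUSG00000032508, chromosome 9, 119335934 to 119341411, minus strand) was at 32.4, 25.8 and 28.3 TPM in the first-experiment controls and at 27.9 and 30.2 in those of the second. The Reg1Δ/Δ libraries had 38.9, 31.2 and 42.8, then 44.4 and 38.0. In the first experiment the second Reg1Δ/Δ library lay inside the range of the controls, and in the second experiment the groups did not overlap. The adaptor rose by 0.42 ± 0.12 on the log2 scale (95% interval 0.15 to 0.68, limma adjusted p = 0.0153), a ratio of means of 1.35. A single coding transcript of 1960 bases held nearly all of it, with 25.4 to 31.7 TPM in the controls and 31.1 to 44.1 in the Reg1Δ/Δ libraries. The retained-intron transcript of Myd88 reached at most 0.480 TPM in any library.

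TPM is relative, and the median difference of all tested genes was −0.25, so the changes were also read against that median. Quantile normalization and median-of-ratios scaling moved the median to 0.14 and 0.10, and the share of calls that were higher went from 28.4% to 59.4% and 57.2%. Relative to the median of all genes, Myd88 was higher by 0.67, 0.50 and 0.72 with no scaling, quantile normalization and median-of-ratios scaling. Tlr2 lay under that median by log2 values of −1.94, −1.51 and −2.07, and Tlr4 and Ly96 also stayed lower and past the threshold under both scalings. Tlr2 and Tlr4 were in these fits through the controls alone, so they had to differ and their passing carries no weight. Tlr6 passed under neither, and its sign turned under quantile normalization (0.03, −0.11 relative to the median, limma adjusted p = 0.926) but not under median-of-ratios scaling (−0.50, limma adjusted p = 0.0968). The fall of Tlr7 was not past the threshold under quantile normalization (−0.18, limma adjusted p = 0.687) and was past it under median-of-ratios scaling (−0.89, limma adjusted p = 0.029).

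**Figure D3:**
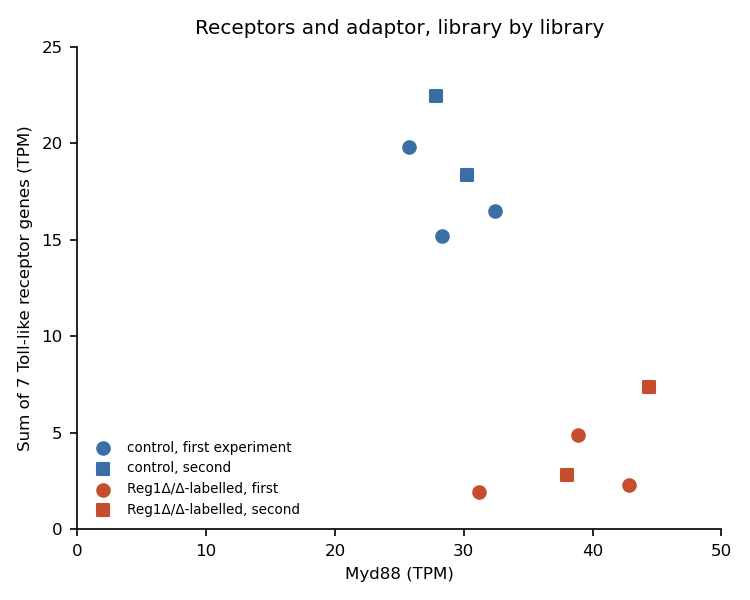
Summed TPM of the 7 Toll-like receptor genes (vertical axis) against the TPM of Myd88 (horizontal axis), 1 point per library, coloured by genotype and shaped by experiment. The controls lay between 15.2 and 22.4 TPM of summed receptors and the Reg1Δ/Δ libraries between 1.91 and 7.36, while Myd88 had a higher mean in the latter.

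The balance between receptors and adaptor was computed for each library as a description. In the controls the 7 receptors summed to 16.5, 19.8 and 15.2 TPM in the first experiment and to 22.4 and 18.4 in the second. They summed to 4.86, 1.91 and 2.29, then 7.36 and 2.78, in the Reg1Δ/Δ libraries. The ratio of this sum to Myd88 ranged from 0.508 to 0.806 in the controls and from 0.0535 to 0.166 in the Reg1Δ/Δ libraries. The largest sum among the Reg1Δ/Δ libraries came from Tlr6, of which 4.89 TPM belonged to a short transcript.

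Tlr6 and Tlr7 were lower too, but their gene levels rested in part on short transcripts. Tlr6 (ENSMUSG00000051498, chromosome 5, 64952031 to 64960097, minus strand), a partner of Tlr2, was at 1.32, 3.22 and 3.02 TPM in the first-experiment controls and at 7.87 and 9.43 in those of the second. The Reg1Δ/Δ libraries had 1.61, 0.948 and 0.834, then 6.27 and 2.54. The groups overlapped in the first experiment and were apart in the second. Tlr6 fell by 0.78 ± 0.24 on the log2 scale (limma adjusted p = 0.0196). This call was lost without the filter (limma adjusted p = 0.0584) and without the experiment covariate (0.297). Of its transcripts, 1 of 446 bases accounted for 5.64 and 6.74 TPM in the controls of the second experiment. The full-length transcript of 3677 bases was at 1.32, 1.93, 2.36, 2.23 and 2.69 TPM in the 5 controls and at 0.596, 0.483, 0.650, 1.38 and 1.23 in the Reg1Δ/Δ libraries, with no overlap within an experiment. With transcripts of at least 1000 bases alone, a setting added after the values were seen in which TPM were rescaled to these transcripts, Tlr6 fell by 1.10 (limma adjusted p = 0.000269).

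Tlr1 and Tlr6 are neighbours on chromosome 5 and near-copies in part of their sequence. They shared 607 stretches of 31 bases, 18.3% of those in Tlr1 transcripts and 16.4% of those in Tlr6 transcripts, and no other pair of the 10 genes shared any. Reads from that stretch could have been divided between both genes.

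Tlr7 (ENSMUSG00000044583, chromosome X, 167304929 to 167330558, minus strand), the endosomal receptor for single-stranded RNA, was at 1.98, 4.26 and 1.80 TPM in the first-experiment controls and at 1.24 and 1.25 in those of the second. In the Reg1Δ/Δ libraries it was at 2.05, 0.318 and 0.147, then 0.0445 and 0.0695. A single Reg1Δ/Δ library overlapped the controls, and 2.01 of its 2.05 TPM came from a noncoding transcript of 261 bases. Tlr7 fell by 1.08 ± 0.28 on the log2 scale (limma adjusted p = 0.0083, or 0.0307 without the filter). With transcripts of at least 1000 bases alone the value was −1.58, but Tlr7 passed the filter there through the controls alone, so it had to differ. The long transcripts of Tlr7 ranged from 0.355 to 1.25 TPM in the controls and from 0.0336 to 0.121 in the Reg1Δ/Δ libraries.

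**Figure D4:**
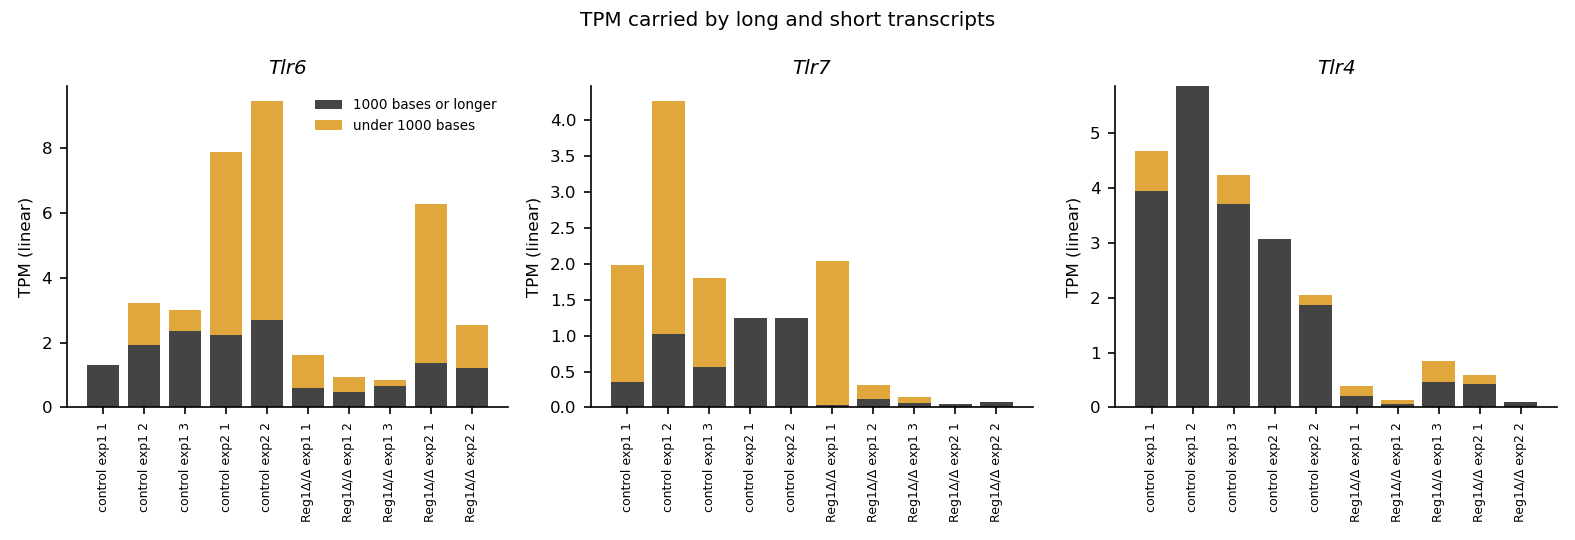
TPM (linear axis from 0) of Tlr6, Tlr7 and Tlr4 in each of the 10 libraries, stacked by transcripts of 1000 bases or longer (dark) and shorter ones (yellow). Short transcripts made up most of Tlr6 in the second experiment and most of Tlr7 in the controls of the first, whereas Tlr4 was mostly long.

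The other 4 genes did not pass the filter on low values. Tlr1 (chromosome 5, 64924679 to 64933563, minus strand) reached at most 0.962 TPM in any library. The controls had 0.962, 0.908 and 0.946, then 0.448 and 0.257, and the Reg1Δ/Δ libraries had 0.214, a value listed at 0 and 0.00915, then 0.0574 and again a value listed at 0. A noncoding Tlr1 transcript of 419 bases held 0.337, 0.771 and 0.749 TPM in the first-experiment controls and was listed at 0 in those of the second. It also held all of the 0.214 TPM in the first Reg1Δ/Δ library. Tlr3 (chromosome 8, 45395665 to 45411080, minus strand), the receptor for double-stranded RNA that does not use Myd88, varied from 0.184 to 3.51 TPM among the controls, and the highest value came mostly from a transcript of 382 bases. It ranged from a value listed at 0 to 0.223 TPM in the Reg1Δ/Δ libraries. Tlr9 (chromosome 9, 106222598 to 106226883, plus strand), the receptor for unmethylated CpG DNA, was listed at 0 in all 6 libraries of the first experiment and was at 1.08 and 0.474 TPM in the controls of the second. Cd14 was at 0.374, 0.542 and 0.549 TPM in the first-experiment controls and at 16.4 and 1.90 in those of the second, compared with at most 0.473 in any Reg1Δ/Δ library. With transcripts of at least 1000 bases alone and TPM rescaled to them, Cd14 was at −2.01 but passed the filter through the controls, which gives the value no weight, and Ly96 could not be tested, since all its transcripts are shorter. The first control of the second experiment, which set the mean of Cd14, was also the highest library for Saa3 (33.2 TPM) and Cxcl10 (42.2 TPM), both named after their values were seen.

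Fitted without the filter, 5 of the 10 genes were lower (Tlr1, Tlr2, Tlr4, Tlr7 and Ly96) and 1 was higher (Myd88), beside 16.7% lower and 5.36% higher of all 33393 genes. Tlr6 (limma adjusted p = 0.0584), Tlr3 (0.0945), Cd14 (0.146) and Tlr9 (0.234) did not pass there. The Tlr1 difference was −0.67 (limma adjusted p = 0.0023), at levels under 1 TPM that came in part from its noncoding transcript of 419 bases. With the filter, 6 of the 10 genes were tested, of which 5 were lower and 1 was higher, beside 37.9% lower and 15.0% higher of the genes tested. Tlr2 and Tlr4 passed the filter through the controls alone, so they had to differ, and the latter counts carry no weight. In 6 of the 10 genes every Reg1Δ/Δ library was below every control in both experiments, as in 16.5% of all genes (5.17% were above), and no gene of the 10 was above. For single genes, the two-sided exact permutation test within experiments has a smallest p of 0.0167 among 120 assignments, and Tlr1, Tlr2, Tlr3, Tlr4, Cd14 and Ly96 reached it. Tlr6 and Myd88 had an exact p of 0.0333, Tlr7 of 0.05 and Tlr9 of 0.333.

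Taken within each experiment by the 4-group model, 4 of the 6 tested genes fell in the first (Tlr2, Tlr4, Tlr7 and Ly96). Beside them, 37.4% of all tested genes were lower and 12.3% higher. In the second, 3 fell (Tlr2, Tlr4 and Ly96), beside 22.9% and 6.60%. The filter on low values is the same here, so these counts carry no weight either. The difference of Tlr2 was −2.10 and −2.34 on the log2 scale in the first and second experiments, and that of Ly96 was −1.84 and −1.95. Myd88 was higher by 0.37 ± 0.16 and 0.49 ± 0.19, and neither value passed on its own (limma adjusted p = 0.0831 and 0.0905). The interaction of genotype and experiment passed limma's threshold for 0 of the 6 genes, beside 0.443% of all tested genes, and was at an unadjusted p under 0.05 for 0, beside 12.5%. Tlr4 had the widest gap, with −2.04 in the first and −1.41 in the second experiment (limma adjusted p of the interaction = 0.534).

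RNA of genes of neutrophils, monocytes and B cells, many of which carry these receptors, was lower in the same libraries. The sort was set to leave such cells out by their lineage markers. The 12 neutrophil genes summed to 1885 to 4402 TPM in the first-experiment controls and to 11337 to 13104 in those of the second, compared with 174 to 614 and 512 to 546 TPM in the Reg1Δ/Δ libraries, and 10 of the 12 were below every control in both experiments, as were 16.5% of all genes. The leading neutrophil gene, S100a9, was at 2729 TPM in the controls and 56.6 in the Reg1Δ/Δ libraries. The 12 monocyte and macrophage genes, led by Lyz2, summed to 513 to 712 and 907 to 1061 TPM in the controls and to 53.9 to 207 and 94.6 to 120 in the Reg1Δ/Δ libraries, and 9 of the 12 were below every control. The 10 B lineage genes, led by Igll1, summed to 143 to 988 and 957 to 1109 TPM, compared with 5.21 to 19.4 and 2.79 to 6.92, and all 10 were below every control. No gene of these 3 lists was listed at 0 in all Reg1Δ/Δ libraries. The part of such cells in the fall of the receptors was not tested, and in bulk RNA fewer cells of a type and less RNA per cell cannot be told apart.

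The 10 dendritic cell genes, led by Bst2, summed to 130 to 143 and 176 to 177 TPM in the controls and to 122 to 151 and 194 to 204 in the Reg1Δ/Δ libraries, with Cd209a listed at 0 in all of the latter. The 10 T and NK genes, led by Nkg7, summed to 259 to 331 and 122 TPM in the controls and to 95.9 to 149 and 39.8 to 49.8 in the Reg1Δ/Δ libraries. The 8 megakaryocyte and platelet genes, led by Pf4, summed to 248 to 470 and 107 to 118 TPM, compared with 93.4 to 115 and 46.0 to 49.4. The 10 erythroid genes summed to 3403 to 6164 and 6760 to 8487 TPM in the controls and to 8533 to 9339 and 7384 to 7464 in the Reg1Δ/Δ libraries, so that the sum was higher in the latter in the first experiment and overlapped in the second. Of these genes, 4 rose past the test (Klf1, Ermap, Epor and Car1, the list's leading gene) and 5 fell (the 4 globins and Slc4a1), beside 15.0% and 37.9% of all tested genes. The list of HSCs and their gate, led by Mpo, a gene of myeloid progenitors, summed to 1878 to 2426 and 653 to 811 TPM in the controls and to 233 to 1138 and 473 to 579 in the Reg1Δ/Δ libraries.

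The wider pathway was described by 7 lists with 109 genes, of which 86 passed the filter. Among these 86, 49 fell and 4 rose (37.9% and 15.0% of all tested genes; 4 of the 86 passed the filter through the controls alone), with a median difference of −0.74 beside −0.25 over all genes. Fitted without the filter, 53 of the 109 genes fell and 6 rose, beside 16.7% and 5.36% of all genes, with a median of −0.60 beside −0.07. Quantile normalization and median-of-ratios scaling gave 37 and 42 of the 86 that fell, beside 20.5% and 25.2% of all tested genes, and 14 and 17 that rose, beside 30.0% and 33.7%. Of the 53 genes called with no scaling, 12 were no longer past the threshold under quantile normalization and 7 under median-of-ratios scaling. The direction of 5 turned under quantile normalization (Irak4, Traf6, Tab2, Il1rap and Nod1, named for that), none of them past the threshold there, and that of 0 under median-of-ratios scaling.

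**Figure D5:**
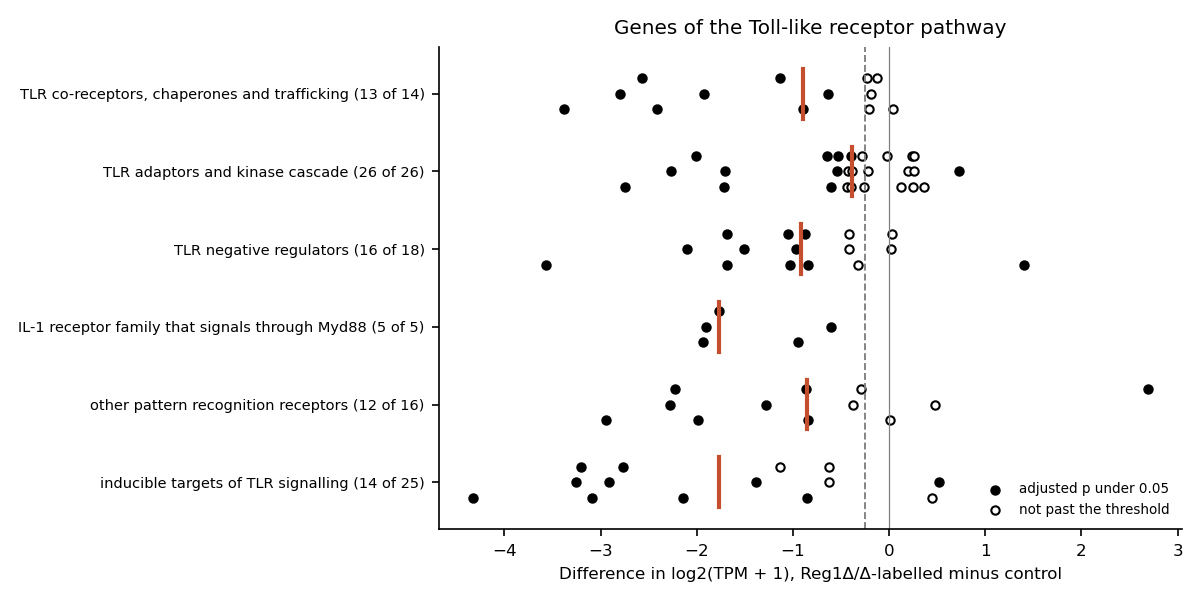
Difference in log2(TPM + 1), Reg1Δ/Δ minus control, of each tested gene of 6 pathway lists (tested and listed numbers in parentheses). Filled points passed an adjusted p under 0.05, red bars are list medians and the dashed line is the median of all tested genes (−0.25). The rises of Zbp1 and Il1rl1 stand alone on the right, at 2.69 and 1.40.

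The remaining Toll-like receptor genes of the mouse (Tlr5, Tlr8, Tlr11, Tlr12 and Tlr13) did not pass the filter. Tlr12 was the highest of them, at 1.53 ± 0.480 TPM in the controls and 0.169 ± 0.106 in the Reg1Δ/Δ libraries, and Tlr5 was listed at 0 in all the latter. Tlr12 was named after its values were seen.

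Of 14 genes for co-receptors, chaperones and trafficking, 8 fell, 0 rose, 5 did not pass limma's threshold and 1 was too low to test, beside 37.9% lower and 15.0% higher of all tested genes. Lbp, which delivers lipopolysaccharide to Cd14, went from 24.8 ± 10.3 to 3.06 ± 0.633 TPM (fall of 2.57 ± 0.29 on the log2 scale, limma adjusted p = 7.04e-05). Pik3ap1, which links Toll-like receptors to PI3 kinase, went from 20.9 ± 8.64 to 1.02 ± 0.464 TPM. Lgmn, an endosomal protease that cuts Tlr9, went from 16.5 ± 17.9 to 0.501 ± 0.543 TPM, and its control values of the second experiment, 31.5 and 40.0, were far above the 1.62 to 6.56 of the first. Unc93b1, the chaperone that takes the endosomal receptors to their compartment, was named after its values were seen. It went from 50.6 ± 2.76 to 8.91 ± 2.25 TPM, a fall of 2.41 ± 0.17 on the log2 scale (limma adjusted p = 3.52e-06). The general chaperone Hsp90b1, which folds most Toll-like receptors, was at 420 ± 173 and 424 ± 161 TPM and did not pass (limma adjusted p = 0.774), but was higher by 0.45 under median-of-ratios scaling (limma adjusted p = 0.0049).

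Of 26 adaptors and kinases downstream of the receptors, 10 fell, 1 rose and 15 did not pass, beside 37.9% and 15.0% of all tested genes, with a median of −0.39 beside −0.25. Ticam2, the adaptor that Tlr4 uses from endosomes, went from 6.14 ± 1.30 to 0.476 ± 0.158 TPM. It passed the filter through the controls alone, so it had to differ, and without the filter its limma adjusted p was 1.81e-05. Irf5, a transcription factor that binds Myd88, went from 27.7 ± 10.9 to 4.53 ± 4.68 TPM, and Peli2, a ubiquitin ligase of the Irak complex, from 8.13 ± 3.68 to 1.16 ± 0.398. Irf7, which drives type I interferon genes behind Tlr7 and Tlr9, was the gene that rose, from 46.0 ± 20.3 to 82.9 ± 47.5 TPM (0.73 ± 0.19 on the log2 scale, limma adjusted p = 0.0101). It did not pass in the second experiment in the 4-group model (0.41, limma adjusted p = 0.318), nor without the experiment covariate (limma adjusted p = 0.3). Of the Irak kinases, Irak1 and Irak4 fell by 0.65 and 0.39 on the log2 scale and Irak2 did not pass (0.13). These depended on the scaling. Irak1 was at −0.65 under quantile normalization and, no longer past the threshold, at −0.24 under median-of-ratios scaling. Irak4 passed under neither (0.28 and −0.03), and Irak2 was higher under both (0.64 and 0.51). The ubiquitin enzyme Ube2n, at 228 ± 92.2 and 230 ± 104 TPM, and Btk, at 75.2 ± 12.3 and 86.0 ± 14.2, did not pass with no scaling or with quantile normalization, and were higher by 0.40 and 0.60 under median-of-ratios scaling. The Irak kinases, Ube2n and Btk were named after their values were seen.

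Of 18 genes that restrain the pathway, 10 fell, 1 rose, 5 did not pass and 2 were too low to test, beside 37.9% lower and 15.0% higher of all tested genes. Irak3, an Irak without kinase activity that is typical of myeloid cells, went from 14.9 ± 2.36 to 2.68 ± 0.367 TPM (fall of 2.10 ± 0.13 on the log2 scale, limma adjusted p = 1.68e-06). Sigirr, an inhibitory receptor of the IL-1 family, went from 62.0 ± 26.1 to 18.9 ± 8.71 TPM (fall of 1.68 ± 0.12). The phosphatase gene Dusp1 fell by 3.57 ± 0.63, but its control mean of 77.2 TPM came from the second control of the first experiment, at 303 TPM, and the fall was 2.88 without that library. Il1rl1, the receptor for IL-33, was the gene that rose, from 11.9 ± 9.63 to 25.6 ± 5.15 TPM (1.40 ± 0.34, limma adjusted p = 0.0067). Taken by experiment, the difference was 2.02 (the first) and 0.47 (the second), where it did not pass (limma adjusted p = 0.412), and the interaction did not pass (limma adjusted p = 0.276). Without the experiment covariate Il1rl1 did not pass either (limma adjusted p = 0.0719). It counts as a negative regulator because it can sequester Myd88, and it also signals through Myd88.

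All 5 genes for the other receptors of the IL-1 family that use Myd88 fell. Il18rap, a chain of the IL-18 receptor, went from 5.81 ± 3.19 to 0.712 ± 0.562 TPM (fall of 1.94 ± 0.24 on the log2 scale, limma adjusted p = 0.000115). Il18r1 fell by 1.90, Il1r1 by 1.76, Il1rl2 by 0.94 and Il1rap, the chain that several of these receptors share, by 0.61. Among all tested genes 37.9% were lower, and Il1r1 and Il18r1 passed the filter through the controls alone, so they had to differ. Under quantile normalization Il1rl2 (−0.07) and Il1rap (0.23) did not pass, and Il1rap did not pass under median-of-ratios scaling either (−0.27).

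Of 16 genes for sensors outside the family, 7 fell, 1 rose, 4 did not pass and 4 were too low to test, beside 37.9% lower and 15.0% higher of all tested genes. Among the 7, 1 passed the filter through the controls alone, so it had to differ. Fitted without the filter, 9 of the 16 fell and 1 rose, beside 16.7% and 5.36% of all genes. Tmem173 (STING), the adaptor of cytosolic DNA sensing, went from 28.1 ± 6.16 to 2.78 ± 0.767 TPM, Aim2, a DNA sensor of the inflammasome, from 23.8 ± 6.74 to 4.32 ± 1.47, and Clec4e (Mincle), a lectin of myeloid cells, from 11.1 ± 7.20 to 1.22 ± 0.440. Zbp1, an interferon-induced sensor of Z-form nucleic acids, rose from 10.2 ± 8.66 to 59.7 ± 18.0 TPM (2.69 ± 0.33 on the log2 scale, limma adjusted p = 0.000121), and in both experiments every Reg1Δ/Δ library was above the controls.

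Of 25 genes that Toll-like receptor signalling is known to induce, 9 fell, 1 rose, 4 did not pass and 11 were too low to test, among them Tnf, Il6, Cxcl1 and Ifnb1. Of all tested genes, 37.9% were lower and 15.0% higher. Lcn2, an iron-binding protein of neutrophils, went from 238 ± 228 to 9.01 ± 6.52 TPM. The chemokine genes Ccl3 and Ccl4 fell by 3.20 and 3.25 on the log2 scale, with the highest control values (87.6 and 155 TPM) in the same library that was high for Dusp1, and by 2.64 and 2.56 without it. Sod2, the mitochondrial superoxide dismutase, was the gene that rose, from 24.0 ± 4.47 to 34.4 ± 3.79 TPM (0.51 ± 0.12, limma adjusted p = 0.0051). In the 4-group model Sod2 (0.43), Ccl3 (−2.37) and Ccl4 (−2.09) did not pass in the second experiment (limma adjusted p = 0.126, 0.0507 and 0.128). With the second experiment fitted alone, Ccl3 and Ccl4 passed (limma adjusted p = 0.0229 and 0.0186) and Sod2 did not (0.204).

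The genes that tracked the most abundant members over the 10 libraries were looked up among 7322 coding genes with a mean TPM of at least 10, after centring each experiment. For Myd88 they were Scly (Pearson r = 0.988), Tapbp (0.986) and Nudt1 (0.974), each with a higher mean in the Reg1Δ/Δ libraries. Scly encodes a selenocysteine lyase, Tapbp a chaperone of MHC class I peptide loading and Nudt1 an enzyme that clears oxidised nucleotides. For Ly96 they were Lgals1 (0.985), which encodes a galectin, Aim2 (0.984) and Rab11a (0.981), a GTPase of recycling endosomes, each lower. These 10 points share the split by genotype, so genes that differ between the genotypes correlate with each other by that alone.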

How the data were processed

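RNA of sorted CD34- HSCs from Reg1Δ/Δ and control mice was analysed, 5 libraries per group. The 2 experiments were told apart by the sample names and the group sizes given in the study. The authors aligned reads with STAR (GRCm38), quantified transcripts with Salmon 0.9.1 (version per the labels) and deposited the log2 of TPM plus 1. The study names GENCODE M17, but the transcript names have an older style, so the release that Salmon used is not settled. Paper and labels give 2 different cDNA kits. The log2 step was undone and TPM summed per gene. Depth is unknown, so count tests could not be run.

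limma 3.58.1 in R 4.3.3 (lmFit, eBayes) was run on log2(TPM + 1), pseudocount 1, for the 12874 genes at 1 TPM or more in 5 or more libraries, with the experiment as covariate and a threshold of 0.05 on Benjamini-Hochberg adjusted p values. Within-experiment effects and their interaction came from a 4-group model. On simulated data (12874 genes), 75 of 107 genes changed by 1 on the log2 scale and 85 of 93 changed by 2 were recovered, and 5.33% of the calls were unchanged genes. The changed genes were drawn from those with a mean log2(TPM + 1) above 2, so the recovery does not cover lower genes such as Tlr2, Tlr4 and Tlr7. Far fewer genes were changed in the simulation than were called in the data, so the 5.33% holds for the simulation alone. Python 3.11.15 was used for tables and plots.

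The members and lists were chosen with earlier results of these data known. Named genes are the 10 members, Zc3h12a, the leading gene of each marker list, the 3 coding genes closest in pattern to each of Myd88 and Ly96 and, from each pathway list, up to 3 rises and 3 falls with the largest change past the threshold, a mean of 5 TPM or more in one group and groups that do not overlap within experiments. Other genes were named after their values were seen. Gene positions come from GENCODE M21 (GRCm38), which holds 28 of the 29 member transcripts in the same version, and promoters from RefSeq. The header of the second Reg1Δ/Δ library of the second experiment names the first. The values differ, and the sample was taken from the deposit record. The closing section gives the other settings tried. A single gene of the marker lists was left out and is not reported here.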

Additional observations from a re-analysis of the deposited data

How the results depend on the processing

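Over 24 alternatives, the 6 members past the filter, Zc3h12a and the 20 pathway genes named by the rule gave 627 values, of which 592 kept their direction and their side of the threshold, 34 kept only the direction and 1 reversed, Tlr6 under quantile normalization (0.0307). A pseudocount of 0.1 widened the falls of Tlr2, Tlr4 and Tlr7 to −3.74, −3.15 and −2.50. This setting, no filter, a mean TPM of at least 1, protein-coding transcripts alone and eBayes with a trend kept the counts within 1.5 times. Tlr2 was lower and past the threshold under every alternative in which it was tested. Most of these keep the filter that Tlr2 passed through the controls alone, so it had to differ there. The fit without the filter does not have this limit (−2.19, limma adjusted p = 3.43e-06). A TPM of at least 1 in every library left 1 lower gene (Ly96) of the 10 and 30 lower genes in the pathway lists, since fewer genes were tested. Each experiment fitted alone, unlike in the 4-group model, takes its spread from its own libraries. The first alone gave 0 higher and 3 lower genes of the 10 (Tlr2, Tlr4 and Ly96). The second alone gave 0 higher and 2 lower (Tlr2 and Tlr7), and 1 higher and 27 lower in the pathway lists, with fewer libraries. Quantile normalization left 3 of the 5 lower genes, and the higher genes of the pathway lists numbered 14 under it, 17 under median-of-ratios scaling, 8 with transcripts of at least 1000 bases (added after the data were seen) and 2 without the experiment covariate; for the last 2 settings the cause was not tested. A stricter adjusted p of 0.01 left Myd88 uncalled (0 higher). Without 1 library at a time, the 10 genes gave 1 higher and 5 lower in all 10 fits, and the pathway lists gave 4 to 6 higher and 48 to 57 lower. These fits keep the filter that Tlr2 and Tlr4 passed through the controls alone, so the count of 5 lower carries no weight. The 4 values lost there were all of Zc3h12a (0.72 to 0.83, limma adjusted p = 0.0595 to 0.0768), without the second control or first Reg1Δ/Δ library of the first experiment, or either Reg1Δ/Δ library of the second.

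The replicate numbers did not pair the libraries: the correlation of deviations was 0.0334, 0.175 and 0.0683 for the 3 numbers of the first experiment and −0.0544 for both numbers of the second. With a replicate block and the same filter, 5 of the 10 genes were lower and 1 higher, and the count of lower genes carries no weight here either. In the pathway lists 48 genes were lower and 4 higher, and Zc3h12a did not pass (limma adjusted p = 0.0505). Tlr1, under 1 TPM in every library, and Tlr3, Tlr9 and Cd14, under it in most, are limited by a depth that TPM does not show.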

Other observations

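The library with the highest Cd14 also stood out within other lists. Saa3, an acute-phase gene that Toll-like receptor ligands induce, was at 33.2 TPM in the first control of the second experiment and at most 3.82 TPM in any other library. Cxcl10, a chemokine induced by interferons, was at 42.2 TPM in it and at most 2.91 elsewhere. Dusp1, Ccl3, Ccl4 and Ptgs2 were instead highest in the second control of the first experiment, at 303, 87.6, 155 and 5.40 TPM, and no other library exceeded 29.4, 13.9, 19.0 and 0.479. Tlr2, in contrast, had a control range of 4.45 to 5.41 TPM that included both libraries.

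The transcripts that made up Ly96 differed between the experiments. A coding transcript of 429 bases was at 5.55, 6.82 and 3.98 TPM in the first-experiment controls and listed at 0 in those of the second. The retained-intron transcript of Ly96 was at 0.760, 1.50 and 0.620 TPM in the first and at 4.08 and 2.17 in the second. The coding transcript of 632 bases, at 7.46 to 22.4 TPM in the controls and 1.35 to 8.14 in the Reg1Δ/Δ libraries, carried most of the gene in all of them. Across all genes, coding transcripts held 46.2% to 49.1% of TPM in the first experiment and 73.5% to 81.1% in the second.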
